A study of Mus musculus with 30 samples.

Results

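Mouse embryonic stem cells (mESCs) transfected with a vector for *Atoh1* and the miR-183 family (p183AT) were compared with mESCs transfected with a vector for the miR-183 family alone (p183T). The members were 6 arrays of 30 in the series, 3 per group, chosen by the vector and cell line in their labels. Each p183AT sample held mESCs 48 h after transfection with the plasmid that drives *miR-183*, *miR-96* and *miR-182* from an intron together with Myc-tagged mouse Atoh1 and a red fluorescent protein (RFP). Each p183T sample held mESCs 48 h after transfection with the same plasmid lacking the Atoh1 coding sequence. The remaining mESC groups were pAT (*Atoh1* and RFP), pT (RFP) and untransfected cells (UT), and p183AT and p183T were also transfected into iMOP cells, a clonal line of immortalized mouse otic progenitors, with 3 samples in every group. All transfected samples were sorted for RFP, so that the p183AT and p183T cells share the promoter (EF-1 alpha), the microRNAs, the fluorophore and the sort, and differ in Atoh1 and in whether RFP is made alone or from a transcript shared with Atoh1. The study's text describes weaker RFP from vectors that also carry Atoh1, and RFP was not measured on these arrays. The mESCs were of the ES-D3 line, grown with leukemia inhibitory factor on arrested feeder fibroblasts and separated from these before transfection. Expression was transient, and the labels do not give the plasmid dose of the sorted cells.

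Atoh1 is a basic helix-loop-helix (bHLH) transcription factor that pairs with E proteins and binds E boxes, short DNA motifs of the form CANNTG. It specifies cerebellar granule neurons, hair cells of the inner ear and secretory cells of the gut, and neural bHLH factors of its kind commonly activate Notch ligands, which pass a signal to neighbouring cells. Id proteins are helix-loop-helix proteins without a DNA-binding region that capture E proteins. The miR-183 family is a cluster of microRNAs expressed with Atoh1 in sensory cells, and a microRNA recognizes messenger RNAs mainly through its seed, bases 2 to 8.

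The mature microRNAs that both groups carry are shown because they are the background on which Atoh1 was tested. They were taken from RefSeq (GRCm38.p6, chromosome 6, minus strand) and lie at chr6:30169711-30169732 (miR-183), chr6:30169506-30169528 (miR-96) and chr6:30165962-30165986 (miR-182). The seed is in capitals, and no 2 of the 3 share a whole seed.
mmu-miR-183-5p: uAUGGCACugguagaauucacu
mmu-miR-96-5p: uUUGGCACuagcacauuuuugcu
mmu-miR-182-5p: uUUGGCAAugguagaacucacaccg

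The vector-carried genes were examined first. The *Atoh1* transcript cluster, the set of array probes for the gene, gave log2 values of 6.27, 6.08 and 6.1 in p183AT cells, against 4.90, 4.37 and 4.69 in p183T cells. The groups did not overlap, and the level of p183T cells was that of UT cells (4.90, 4.51 and 4.92). *Atoh1* was thus 1.49 ± 0.16 (SE of the limma fit) higher on the log2 scale, a 2.81-fold difference with an adjusted p of 0.00015. The sources do not say whether the *Atoh1* probes read the vector transcript, the chromosomal one or both. The *Mir183* hairpin cluster gave 5.52, 5.87 and 7.68 in p183AT cells and 6.85, 7.13 and 7.43 in p183T cells, against 2.27, 2.28 and 2.0 in UT cells. Hairpin signal was therefore well above UT in all 6 arrays, and within p183AT cells replicate 3 stood above replicates 1 and 2. *Mir96* showed the same layout, with 8.14, 8.21 and 9.83 in p183AT cells and 8.66, 9.15 and 9.11 in p183T cells. *Mir182* gave 8.23, 7.80 and 9.81 in p183AT cells and 8.83, 9.06 and 9.08 in p183T cells. None of the 3 hairpins passed the test (*Mir183* -0.78, adjusted p = 0.45, *Mir96* -0.25, adjusted p = 0.83, and *Mir182* -0.37, adjusted p = 0.77). Without p183AT replicate 3 the *Mir183* difference was -1.44 and passed, with an adjusted p of 0.004. The clusters read precursor sequence, and mature microRNA was not measured on these arrays.

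**Figure D1:**
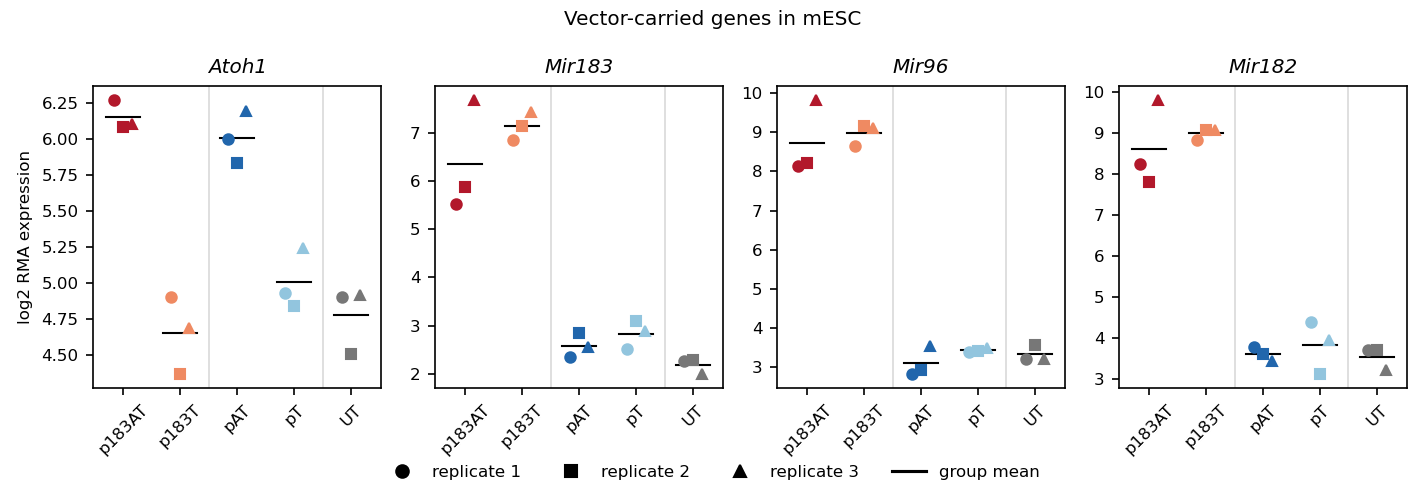
Log2 RMA expression (y axis) of *Atoh1* and the 3 microRNA hairpins in each mESC array (x axis: group, symbols: replicates, bar: mean of 3). *Atoh1* lay at 6.08 to 6.27 in p183AT cells and at 4.37 to 4.90 in p183T cells, and the hairpins of p183AT replicate 3 lay above those of replicates 1 and 2.

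Adding Atoh1 to the microRNAs raised more genes than it lowered. Of 25341 transcript clusters tested, 217 (0.856%) were higher and 76 (0.300%) lower in p183AT cells at an adjusted p under 0.05, which is what "called", "rose" and "fell" refer to below. The called clusters included 66 that rose and 8 that fell by over 2-fold, while the median over all clusters was a log2 difference of 0.01. All 293 called clusters had groups that did not overlap, as had 3715 (14.7%) of all tested clusters. In 28 of the called clusters both group means were under log2 5, where signal is dim. The 6 arrays were alike, with medians of log2 4.57 to 4.59 and replicate correlations of 0.985 to 0.993 over all clusters. The counts depended on the arrays and the fit. Fitting only the 6 compared arrays gave 83 higher and 12 lower clusters. With 1 of the 6 left out, higher clusters numbered 138 (without p183T replicate 2) to 279 (without p183AT replicate 2) and lower ones 34 (without p183T replicate 1) to 135 (without p183AT replicate 2). In bulk samples, fewer cells expressing a gene and less RNA per cell cannot be told apart.

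The Notch ligand *Dll3* and the Hes antagonist *Hes6* had among the largest rises. *Dll3*, a Delta-family ligand that inhibits Notch within the cell that makes it, gave 7.88, 7.86 and 7.91 in p183AT cells, against 5.90, 5.70 and 6.01 in p183T cells. The 3 p183AT arrays lay within 0.1 of each other and far above p183T and UT cells (5.84, 5.90 and 5.57), a rise of 2.01 ± 0.11 (SE, adjusted p = 3.3e-07). *Hes6*, a bHLH factor that opposes Hes1 and favours neuronal differentiation, gave 8.62, 8.93 and 8.82 in p183AT cells and 6.78, 7.06 and 6.92 in p183T cells. It rose by 1.87 ± 0.11 (adjusted p = 3.3e-07), and UT cells were lower than both (5.96, 6.14 and 6.09). *Dll1*, the Delta ligand that activates Notch on adjacent cells, gave 7.24, 7.79 and 7.77 in p183AT cells and 6.56, 6.81 and 6.68 in p183T cells. Its rise of 0.92 ± 0.20 passed narrowly (adjusted p = 0.032) and was lost on leaving out any array but p183AT replicate 1 (adjusted p = 0.15 without p183T replicate 1). A second, dimmer *Dll1* cluster differed by 0.45 and did not pass (adjusted p = 0.27). *Lfng*, a glycosyltransferase that tunes Notch receptors, rose by 0.76 (adjusted p = 0.046, or 0.060 with the replicate number as a block, and 0.21 without p183T replicate 1, with the call also lost without p183T replicate 2 or p183AT replicate 2 or 3).

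These 3 were the called members of 19 measured Notch ligands, receptors and modulators, with a list median of 0.18. None was lower, which is near the 0.300% called lower over all clusters. The receptors were not among the called members: *Notch1* differed by -0.01, *Notch2* by 0.38 and *Notch3* by 0.36. Of 12 Hes and Hey repressors the called member was *Hes6*, which opposes Hes1, and the list median was 0.06. Of the usual transcriptional outputs of Notch, *Hes1* differed by 0.35 and *Hes5* by 0.24 (5.0, 5.25 and 5.08 in p183AT cells, against 4.78, 4.82 and 5.01 in p183T cells), and neither passed.

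Promoters of 3 genes with steep responses are shown with their E boxes, as the motif Atoh1 binds. Each is a RefSeq window of GRCm38.p6 that spans a transcription start, printed 5′ to 3′ in the direction of the gene, with every CANNTG in capitals. *Dll3* lies at chr7:28301736-28302035 (minus strand), the second of 2 *Hes6* windows at chr1:91413173-91413472 (minus strand) and *Cdc25b* at chr2:131186698-131186997 (plus strand). The genes were chosen after their responses and motifs had been seen.
Dll3: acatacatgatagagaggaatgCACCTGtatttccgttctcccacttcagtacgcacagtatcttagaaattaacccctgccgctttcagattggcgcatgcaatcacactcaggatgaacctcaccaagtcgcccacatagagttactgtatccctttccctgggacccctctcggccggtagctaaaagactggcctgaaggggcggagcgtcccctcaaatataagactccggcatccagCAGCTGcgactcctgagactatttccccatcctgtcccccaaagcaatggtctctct
Hes6: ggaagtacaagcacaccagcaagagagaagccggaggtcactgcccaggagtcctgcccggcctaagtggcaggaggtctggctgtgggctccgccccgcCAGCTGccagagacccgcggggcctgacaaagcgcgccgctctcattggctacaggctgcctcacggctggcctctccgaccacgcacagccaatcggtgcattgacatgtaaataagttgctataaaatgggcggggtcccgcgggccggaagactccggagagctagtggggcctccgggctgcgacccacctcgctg
Cdc25b: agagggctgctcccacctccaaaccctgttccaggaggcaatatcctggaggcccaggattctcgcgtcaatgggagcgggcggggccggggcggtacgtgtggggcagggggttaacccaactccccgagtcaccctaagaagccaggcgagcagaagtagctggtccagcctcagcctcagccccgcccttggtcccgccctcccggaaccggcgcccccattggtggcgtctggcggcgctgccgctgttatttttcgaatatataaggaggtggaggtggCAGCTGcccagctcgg
Each window held CAGCTG, which reads the same on both strands and is 1 of the forms of CANNTG. Counted from the transcription start, it began at -7 in *Dll3*, at -150 in *Hes6* and at 35 in *Cdc25b*. The first *Hes6* window held it as well. *Trp53i11*, *Fgf5* and *Peg3*, which rose as well, had no CANNTG in their windows, and *Lama1* and *Zbp1* had no window here. Among windows of genes called higher, 19.5% of 200 held CAGCTG, against 21.3% of 61 windows of genes called lower and 16.2% of 20615 windows of all tested genes. For CAGATG or its reverse complement CATCTG these shares were 18.5%, 9.8% and 14.6%, and for CANNTG of any kind 67.0%, 68.9% and 69.1%. A motif in a window is a match of letters and says nothing of binding.

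*Id1* and *Id2* rose while most of the BMP pathway did not pass. *Id1* gave 7.51, 7.63 and 7.56 in p183AT cells, against 5.92, 6.47 and 6.39 in p183T cells, and rose by 1.30 ± 0.16 (adjusted p = 0.00061). *Id2* gave 9.77, 10.49 and 10.27 in p183AT cells and 8.58, 8.95 and 9.14 in p183T cells, a rise of 1.28 ± 0.20 (adjusted p = 0.003, or 0.051 with only the compared arrays in the fit). The groups did not overlap for either gene, and UT cells lay at 5.88 to 6.34 for *Id1* and at 7.58 to 8.04 for *Id2*. *Id3* gave 6.79, 6.92 and 6.84 in p183AT cells and 5.33, 5.85 and 6.51 in p183T cells. Its p183T arrays spread widely and the difference of 0.96 did not pass (adjusted p = 0.13, and 0.03 without p183T replicate 3). Of 16 measured Id and BMP genes *Id1* and *Id2* were the 2 called higher, none was called lower, and the list median was 0.24. *Bmp4*, a ligand whose signal induces Id genes, differed by -0.40 and did not pass. In the nodal and TGF-beta list *Smad3*, a signal transducer, rose by 0.81 (adjusted p = 0.0039, or 0.054 with only the compared arrays) as 1 of 13 measured genes.

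**Figure D2:**
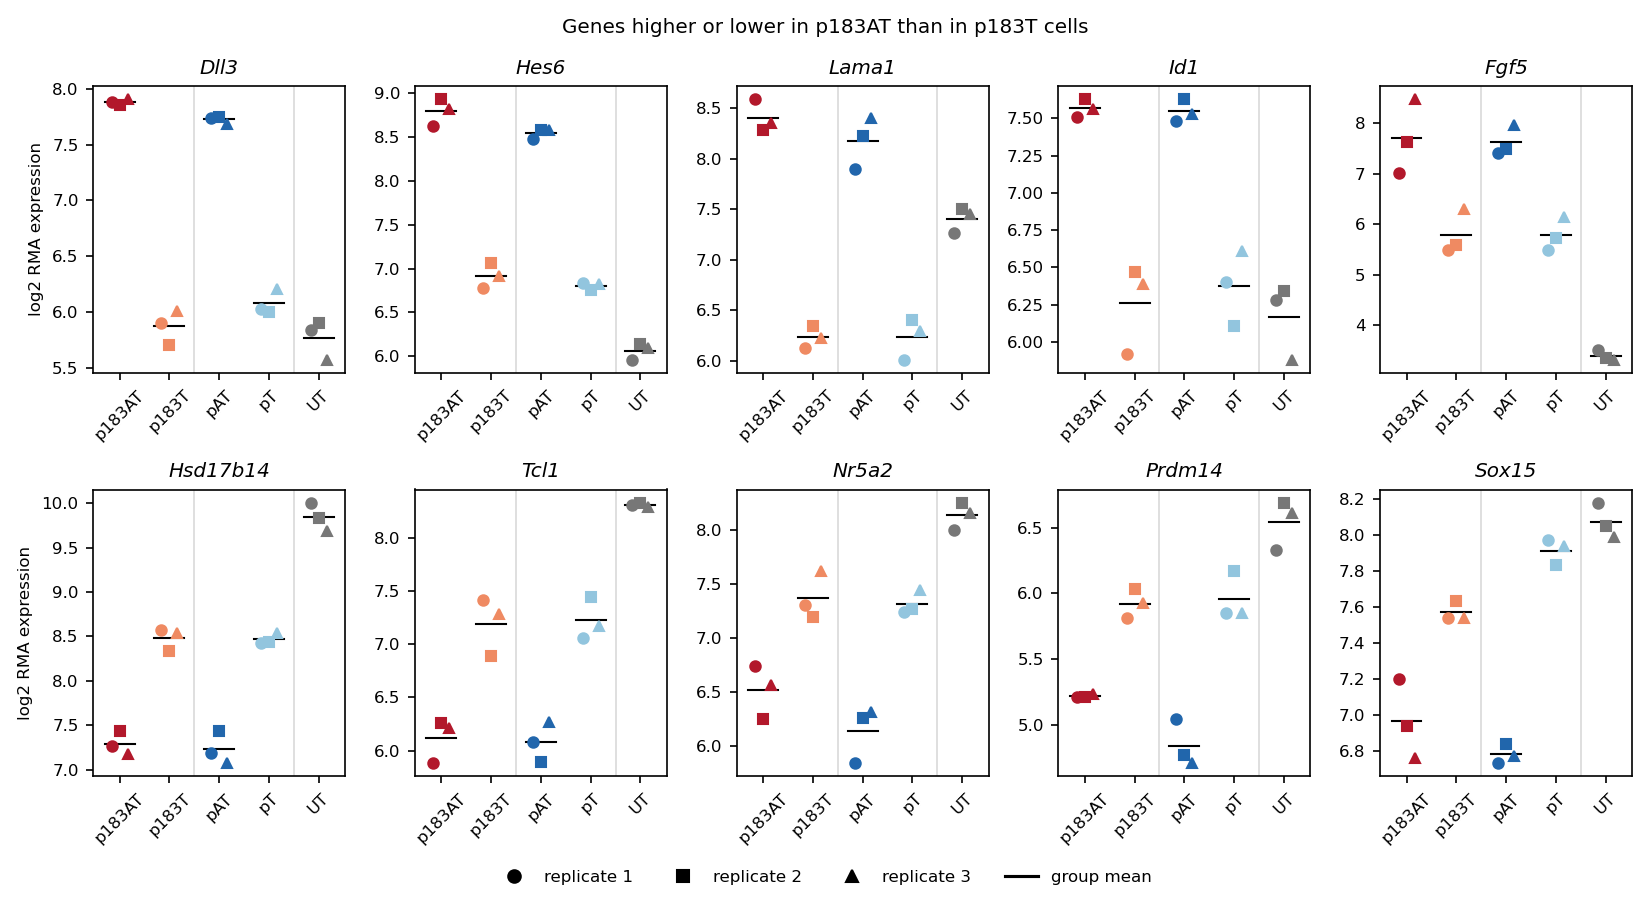
Log2 RMA expression (y axis) of 5 genes that rose (upper row) and 5 that fell (lower row) in each mESC array (x axis: group, symbols: replicates, bar: mean of 3). For each gene the p183AT arrays do not overlap the p183T arrays, and the pAT and pT arrays are separated in the same direction.

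*Cdc25b*, a phosphatase that activates cyclin-dependent kinases at mitotic entry, gave 8.97, 8.98 and 8.86 in p183AT cells and 7.10, 7.32 and 7.25 in p183T cells, and rose by 1.71 ± 0.11 (adjusted p = 5.1e-07). *Trp53i11*, a gene first described as induced by p53, gave 10.92, 11.03 and 10.79 in p183AT cells and 8.46, 9.14 and 9.27 in p183T cells, and rose by 1.96 ± 0.19 (adjusted p = 4.9e-05). *Peg3*, an imprinted gene for a zinc finger protein, gave 9.55, 9.44 and 9.59 in p183AT cells and 8.08, 8.12 and 8.30 in p183T cells (1.36, adjusted p = 1.1e-05). All 3 genes kept the groups well apart, and leaving out an array did not end the call of any of them.

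Of 36 measured proneural and early neuronal genes 2 rose (*Ebf2*, an early neuronal transcription factor, by 0.73, adjusted p = 0.0028, or 0.073 with only the compared arrays, and *Gadd45g*, a growth arrest gene of newborn neurons, by 0.60, adjusted p = 0.045). A second, much dimmer *Ebf2* cluster differed by -0.055 and did not pass (adjusted p = 0.94). The *Gadd45g* call was lost on leaving out any array but p183AT replicate 1 (adjusted p = 0.20 without p183T replicate 1). The median of the proneural and early neuronal list was 0.14, and 15 of its members were dim in both groups, among them *Neurog1*, *Neurod1* and *Neurod4*. The neuronal tubulin *Tubb3* differed by 0.18 and *Sox11* by 0.62, without passing.

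Of 17 genes that the study named as targets of Atoh1 in the cerebellum, 14 rose, none fell and the median difference was 0.84. That list was picked by the study with results of these cells at hand, so its direction is not independent evidence. Besides *Dll3*, *Hes6*, *Cdc25b*, *Peg3*, *Id1* and *Id2*, the called members included *Rassf4* (1.20), *Jakmip2* (1.17), *Nxn* (0.84), *Vat1l* (0.83) and *Rab30* (0.73).

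The largest rise among clusters with 1 gene symbol was that of *Lama1*, the alpha chain of the first laminin of embryonic basement membranes. *Lama1* gave 8.59, 8.28 and 8.35 in p183AT cells, against 6.13, 6.34 and 6.23 in p183T cells. It rose by 2.18 ± 0.15 (4.52-fold, adjusted p = 1e-06). UT cells lay between the transfected groups at 7.26, 7.50 and 7.45, so that p183T cells were below and p183AT cells above untransfected cells. Cadherins followed: *Cdh10* rose by 1.33, *Cdh2* (N-cadherin, of neural and mesodermal cells) by 1.08 and *Cdh3* (P-cadherin) by 0.77, with adjusted p-values of 0.0033, 0.00021 and 0.0062. A second, much dimmer *Cdh2* cluster differed by 0.28 and did not pass (adjusted p = 0.56). *Epcam*, an epithelial adhesion protein of stem cells, fell by 0.60, while *Cdh1* (E-cadherin) differed by 0.08. These were the 4 higher and 1 lower of 23 measured adhesion and basement membrane genes, whose median was 0.21. The laminin partner chains *Lamb1* (0.49) and *Lamc1* (-0.01) did not pass. Among 29 axon guidance genes 4 rose (*Sema3e* by 1.02, *Sema6a* by 0.84, *Sema3c* by 0.83 and *Epha4* by 0.65) and none fell, against 0.856% and 0.300% of all clusters. Of these 4 calls, *Sema3e* was kept whichever array was left out, and the other 3 were not. *Sema6a* (adjusted p = 0.093 without p183T replicate 1) and *Sema3c* (adjusted p = 0.12 without p183T replicate 2) lost it without p183T replicate 1 or 2 or p183AT replicate 3, and *Epha4* without p183T replicate 2 or 3 or p183AT replicate 1 (adjusted p = 0.078 without p183T replicate 3).

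Genes of the primed epiblast, the state that follows naive pluripotency in the embryo, were 6 higher and 0 lower of 21 measured, with a median of 0.21. Over all clusters 0.856% were higher and 0.300% lower, so the absence of lower members is near that share. *Fgf5*, a growth factor that marks that state, gave 7.02, 7.63 and 8.48 in p183AT cells and 5.49, 5.59 and 6.30 in p183T cells, against 3.52, 3.36 and 3.32 in UT cells. It rose by 1.91 ± 0.30 (adjusted p = 0.0035, or 0.081 with only the compared arrays), and transfected cells of both groups stood far above UT cells. Replicate 3 was the highest array of p183AT, p183T, pAT and pT alike. *Pou3f1*, a POU factor of the epiblast and early neural cells, gave 8.01, 8.25 and 8.68 in p183AT cells and 7.07, 6.85 and 7.34 in p183T cells, and rose by 1.22 ± 0.19 (adjusted p = 0.0031). *Prtg*, a surface protein of the early neural plate and mesoderm, rose by 0.86 (9.76, 9.80 and 9.60 in p183AT cells and 8.87, 8.90 and 8.81 in p183T cells). *Dnmt3a*, a de novo DNA methyltransferase, rose by 0.47 and *Sall2* by 0.53, with adjusted p-values of 0.026 and 0.046. The *Dnmt3a* call was lost without any array but p183AT replicate 2 (adjusted p = 0.12 without p183T replicate 1). The *Sall2* call was lost without any of the 6 arrays (adjusted p = 0.16 without p183T replicate 2) and under the replicate block (adjusted p = 0.064). *Otx2* (0.45), *Sox1* (-0.09) and *Pax6* (-0.07), which mark anterior and neural fate, did not pass.

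Genes of the mesendoderm list were 4 higher and 0 lower of 19 measured (0.856% and 0.300% over all clusters), with a median of 0.18. *Snai2*, a repressor active in epithelial-mesenchymal transition, gave 7.47, 8.01 and 7.48 in p183AT cells and 6.43, 6.31 and 6.62 in p183T cells, a rise of 1.20 ± 0.16 (adjusted p = 0.00094). The endoderm factors *Gata6* (0.92, adjusted p = 0.026) and *Sox7* (0.65, adjusted p = 0.048) and the endocytic adaptor *Dab2* (0.80, adjusted p = 0.0043) rose as well. *Dab2* kept its call whichever array was left out. *Gata6* lost it without replicate 1 or 2 of either group (adjusted p = 0.15 without p183T replicate 1), and *Sox7* lost it without any 1 of the 6 arrays (adjusted p = 0.18 without p183AT replicate 1) and under the block (adjusted p = 0.073). *Sox17*, *Foxa2*, *Eomes* and *Gsc* did not pass.

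Some fibroblast markers, which would report feeder cells, were higher in p183AT cells, and so was their summed signal. The typical member hardly differed, with a list median of 0.06 and 10 of 18 members positive. The log2 of the summed signal of 18 markers was 9.81 to 10.17 in p183AT cells and 9.43 to 9.71 in p183T cells, without overlap, and reached 10.16 in UT cells. In the contrast without the microRNAs it was 9.78 to 10.14 in pAT cells and 9.55 to 9.77 in pT cells, narrowly without overlap. *Pdgfra* was the 1 marker that passed, rising by 0.93 (6.49, 6.15 and 6.12 in p183AT cells and 5.21, 5.34 and 5.42 in p183T cells). *Tagln*, a smooth muscle and fibroblast protein, gave 7.47, 6.78 and 8.38 in p183AT cells and 5.97, 5.71 and 7.14 in p183T cells, with the highest value in replicate 3 of each group, and was not called (1.27, adjusted p = 0.19). *Loxl1* (-0.28), *Col6a1* (-0.27) and *Pdgfrb* (-0.06) lay on the negative side without passing. *Col1a1* (0.11), *Col1a2* (0.24) and *Thy1* (0.11) did not pass, and 7 of the 18 markers, including *Dcn*, *Lum*, *Fap*, *Postn* and *Col3a1*, were dim in p183AT cells. The part of fibroblasts in the rises of adhesion, epiblast and mesendoderm genes was not tested. Glial, vessel and immune markers summed to 8.91 to 9.02 in p183AT cells and 8.98 to 9.11 in p183T cells.

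Of 31 measured naive and core pluripotency genes 8 were lower, 1 was higher and the median was -0.27. *Tcl1*, a cofactor of Akt, gave 5.88, 6.26 and 6.21 in p183AT cells, against 7.41, 6.89 and 7.28 in p183T cells and 8.31, 8.33 and 8.29 in UT cells, and fell by 1.08 ± 0.15 (adjusted p = 0.0017). *Nr5a2*, a nuclear receptor of naive cells, gave 6.74, 6.25 and 6.56 in p183AT cells and 7.30, 7.19 and 7.62 in p183T cells, and fell by 0.85 ± 0.16 (adjusted p = 0.012, or 0.071 without p183T replicate 3). *Prdm14*, a repressor that keeps naive cells from priming, gave 5.21, 5.21 and 5.24 in p183AT cells and 5.81, 6.03 and 5.93 in p183T cells. It fell by 0.70 (adjusted p = 0.012, or 0.067 without p183T replicate 2, with the call also lost without p183T replicate 3). *Sox15*, a Sox factor expressed in mESCs, gave 7.20, 6.94 and 6.76 in p183AT cells and 7.54, 7.63 and 7.54 in p183T cells, and fell by 0.60 (adjusted p = 0.013, or 0.068 without p183AT replicate 3, with the call also lost without p183T replicate 2). *Fgf4*, the growth factor by which mESCs signal to themselves, fell by 0.83 (8.76, 9.21 and 9.52 in p183AT cells and 9.90, 9.92 and 10.17 in p183T cells, adjusted p = 0.023, or 0.12 without p183T replicate 3, with the call also lost without p183T replicate 1 or 2 or p183AT replicate 1). *Zfp42* (Rex1) fell by 0.54, the adhesion molecule *Pecam1* by 0.51 and the transcription factor *Tfcp2l1* by 0.46. Their adjusted p-values were 0.048, 0.020 and 0.043. *Zfp42* lost its call without any array but p183AT replicate 2 (0.21 without p183T replicate 3), *Pecam1* without p183T replicate 1 or 2 or p183AT replicate 3 (0.093 without p183T replicate 1) and *Tfcp2l1* without replicate 1 or 3 of either group (0.18 without p183T replicate 1) and under the replicate block (0.069). The p183T arrays lay below UT for *Tcl1*, *Nr5a2*, *Prdm14* and *Sox15*, and the p183AT arrays lay further below. The log2 of the summed signal of the 31 genes was 14.01 to 14.08 in p183AT cells and 14.21 to 14.34 in p183T cells, against 14.45 to 14.57 in UT cells.

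The core factors *Nanog*, *Pou5f1* and *Sox2*, which define the labelled cell type, were well above the dim level in all 6 arrays and were not called. *Nanog* gave 10.12, 10.08 and 9.87 in p183AT cells and 10.33, 10.41 and 10.37 in p183T cells. These did not overlap, yet the difference of -0.34 did not pass (adjusted p = 0.12, and 0.029 with dim clusters left out of the test). *Pou5f1* differed by 0.11 (6.98, 6.80 and 7.03 in p183AT cells and 6.79, 6.66 and 7.01 in p183T cells) and *Sox2* by -0.18 (10.73, 10.66 and 10.48 in p183AT cells and 10.82, 10.86 and 10.73 in p183T cells). *Nr0b1* (-0.75), *Klf4* (-0.24) and *Esrrb* (-0.17) did not pass, and *Dppa5a* was dim in all mESC groups. The 1 higher member was *Pim2*, a survival kinase, which rose by 1.16 (8.36, 8.31 and 8.57 in p183AT cells and 6.96, 7.26 and 7.53 in p183T cells, adjusted p = 0.0028). Trophectoderm and 2-cell stage genes had no called member of 14, which is near the share over all clusters.

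Among clusters with 1 symbol the steepest fall was that of *Hsd17b14*, a steroid and sugar dehydrogenase. It gave 7.27, 7.43 and 7.17 in p183AT cells, against 8.57, 8.34 and 8.54 in p183T cells and 10.01, 9.84 and 9.69 in UT cells, and fell by 1.19 ± 0.13 (2.29-fold, adjusted p = 0.00013). *Mras*, a small GTPase related to Ras, gave 5.34, 5.52 and 5.30 in p183AT cells, 6.72, 6.35 and 6.46 in p183T cells and 8.51, 8.25 and 8.17 in UT cells, and fell by 1.13 ± 0.14 (adjusted p = 0.00052). For both genes the p183T arrays lay below the UT arrays, and the p183AT arrays lay lower still. *Apod* (-1.05), a lipid carrier, *Capsl* (-1.03) and *Calcoco2* (-1.02), an autophagy receptor, fell by over 2-fold as well, the last with a call lost without replicate 1 or 3 of either group (adjusted p = 0.16 without p183T replicate 3). *Stra8*, a gene of meiotic entry induced by retinoic acid, gave 5.29, 5.03 and 5.14 in p183AT cells and 6.39, 5.76 and 6.05 in p183T cells (-0.91, adjusted p = 0.0046), and *Dhrs3*, which reduces retinal and so limits retinoic acid, rose by 1.13 (7.55, 7.52 and 7.64 in p183AT cells and 6.24, 6.56 and 6.54 in p183T cells). Among 16 measured retinoid genes *Dhrs3* was the 1 called higher and *Stra8* the 1 called lower. The other 14 were not called, 12 of the 16 were positive, and the list median was 0.19. Whether retinoic acid differed was not tested. With only the compared arrays in the fit *Apod*, *Capsl* and *Stra8* lost their calls (adjusted p = 0.088, 0.11 and 0.088). The larger falls of all called clusters included 2 with several symbols, for *Slfn9* and *Slfn8* (-1.02) and for *Snord68* with *Rpl13* (-2.17), which cannot be given to 1 gene.

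Hair cell genes, the interest of the study in these vectors, were 2 higher and 2 lower of 43 measured (0.856% and 0.300% over all clusters). Their median was 0.01, and 27 of them were dim in both groups. The higher ones were *Hes6* and *Rbm24*, an RNA-binding splicing factor of hair cells and muscle (0.84, adjusted p = 0.049, 0.082 under the block, 0.21 without p183T replicate 1, and lost without any array but p183AT replicate 2). The lower ones were *Mreg*, an organelle trafficking protein (-0.74, adjusted p = 0.0069, or 0.082 with only the compared arrays), and *Lhfpl5*, a subunit of the mechanotransduction complex that was dim in both groups (-0.68, adjusted p = 0.046, or 0.21 without p183T replicate 1, and lost without any array but p183T replicate 2). *Pou4f3*, a transcription factor required by hair cells, gave 5.52, 4.95 and 5.33 in p183AT cells and 4.56, 5.16 and 5.10 in p183T cells, with overlap and no call (0.33, adjusted p = 0.59). *Gfi1* (-0.14, adjusted p = 0.82), *Barhl1* (-0.10, adjusted p = 0.85), *Myo7a* (-0.09, adjusted p = 0.85) and *Otof* (-0.22, adjusted p = 0.45) were not called. Of 12 genes that the study named as enriched in hair cells and raised in mESC, 11 rose, none fell and the median was 1.35, among them *Lama1*, *Dll3*, *Fgf5* and *Hes6*. As that list was picked on these samples, it is not independent evidence of its direction. None of 22 otic progenitor and supporting cell genes was called. Of 11 measured genes that the study named as miR-183 family targets none was called, with a median of 0.02, both groups carrying the microRNAs. For lists of this size both results are near the overall share.

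None of 24 cell cycle and replication genes was called (median -0.01), although *Cdc25b* rose. No call in a list of this size is near the overall share of 0.856% higher and 0.300% lower. The growth arrest and p53 list had 2 higher of 20, the kinase inhibitor *Cdkn1c* (0.65, adjusted p = 0.0057, or 0.093 with only the compared arrays) and *Gadd45g*, while the p53 target *Cdkn1a* differed by 0.10 and *Mdm2* by 0.16. Nucleic acid sensing gave 2 higher of 20: *Zbp1*, a sensor of Z-form nucleic acid, rose by 1.38 (6.94, 7.37 and 6.98 in p183AT cells and 5.84, 5.54 and 5.77 in p183T cells, adjusted p = 4.9e-05), and *Oasl2* by 0.92 (adjusted p = 0.0099, or 0.055 without p183AT replicate 3, the call being lost without p183T replicate 2 as well). *Ifit1*, *Ifit2*, *Isg15* and *Irf7*, which interferon induces broadly, were dim and uncalled. No member passed among 15 Wnt, 14 stress and 6 reference genes, again near the overall share.

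The other genes among the largest changes are given for completeness. *Gfra3*, a receptor of the GDNF ligand family, rose by 1.4 (6.22, 6.63 and 6.58 in p183AT cells and 5.09, 5.01 and 5.13 in p183T cells). *Greb1l* gave 7.86, 7.68 and 7.83 in p183AT cells and 6.48, 6.46 and 6.32 in p183T cells, against 5.10, 5.09 and 5.02 in UT cells, and rose by 1.37 (adjusted p = 1.4e-06). *Rgs16*, which shortens signals of G protein-coupled receptors, rose by 1.33 and the transcription cofactor *Lbh* by 1.33. *Lzts1* (1.17) and *Car2*, a carbonic anhydrase (1.01), rose as well. *Lrrc2* (-0.91), *Calhm5* (-0.89), *Morc1*, a gene of male germ cells (-0.86), *Gpa33* (-0.85), *Casq1*, a calcium store protein of muscle (-0.85), and *Gtsf1l* (-0.85) completed the lowest 15. Of these 6, *Lrrc2* and *Gpa33* kept their calls whichever array was left out, though *Lrrc2* lost it with only the compared arrays in the fit (adjusted p = 0.081). The others lost theirs, with adjusted p-values of 0.068, 0.084, 0.057 and 0.21 for *Calhm5*, *Morc1*, *Casq1* and *Gtsf1l* without p183T replicate 1, the array whose absence weakened them most.

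**Figure D3:**
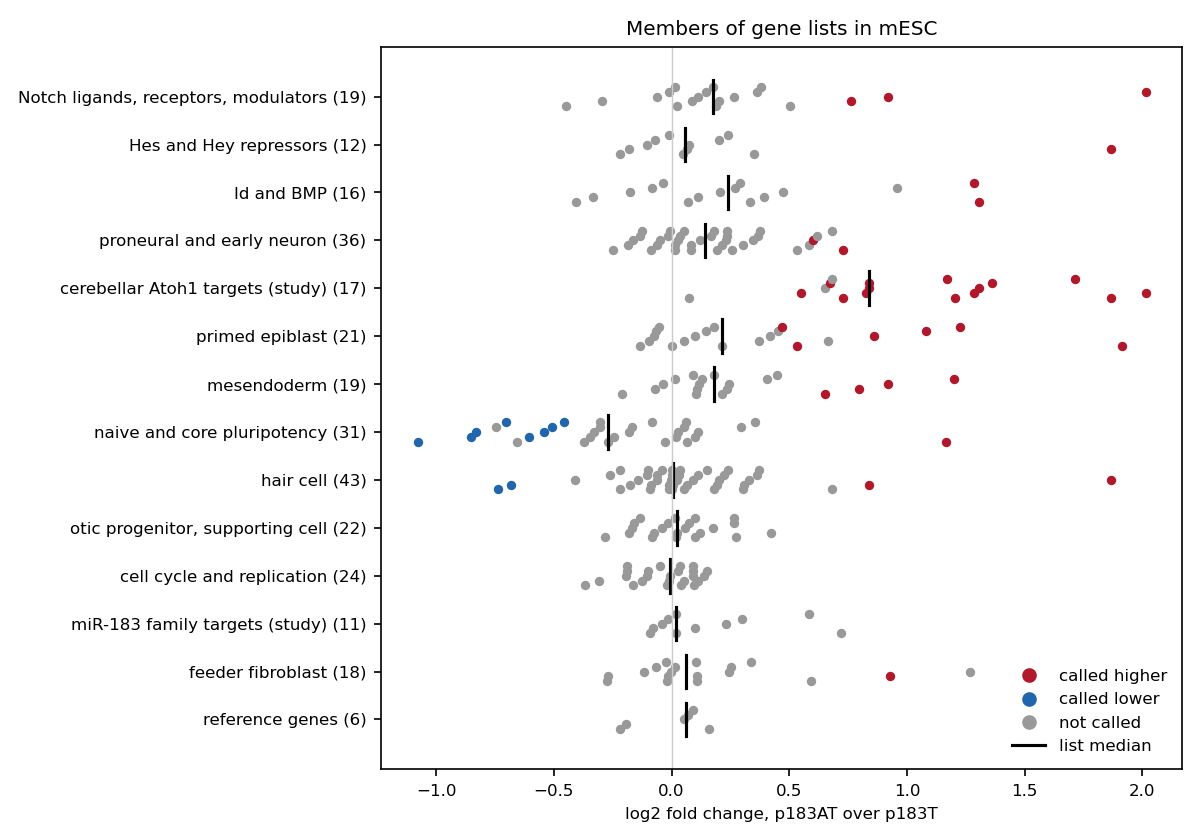
Log2 fold change of p183AT over p183T (x axis) for every measured member of 14 gene lists (rows, number of members in brackets), coloured by call, with the list median as a bar. Called members are rare in most lists, pluripotency holds most of the lower ones, and the list of cerebellar targets, which the study chose, is shifted as a whole with a median of 0.84.

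The pAT and pT arrays, which share no array with p183AT and p183T, asked the same question of Atoh1 without the microRNAs. There 131 clusters (0.517%) were higher and 71 (0.280%) lower in pAT than in pT cells, and 155 (0.612%) were called in the same direction in both contrasts, 111 higher and 44 lower. The shared higher clusters were 51.2% of those called with the microRNAs and 84.7% of those called without them, and the shared lower clusters were 57.9% and 62%. Direction was held more widely than the call. Of the 131 clusters higher in pAT, 130 were positive and 111 called in p183AT against p183T, with median differences of 0.90 with the microRNAs and 0.82 without. Of the 71 lower in pAT, all were negative and 44 called, with medians of -0.57 with the microRNAs and -0.74 without. Choosing clusters by their call in 1 contrast favours larger values in that contrast. The 76 clusters called lower with the microRNAs had medians of -0.66 with them and -0.61 without. For the 217 called higher with the microRNAs the medians were 0.81 and 0.62. Over all tested clusters 15716 of 25341 had the same sign in both contrasts, and the log2 differences correlated with r = 0.47, across genes, which are not independent replicates. The limma fit estimated the spread of both contrasts from the same 15 arrays. The count of 155 was 84 without pT replicate 2, 90 without pT replicate 1 and 96 without pT replicate 3, and stayed at 105 or more without any other array.

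Among the genes with the largest difference common to both contrasts were *Lama1* (2.18 with the microRNAs and 1.94 without), *Fgf5* (1.91 and 1.84), *Hes6* (1.87 and 1.74), *Trp53i11* (1.96 and 1.67), *Dll3* (2.01 and 1.65), *Cdc25b* (1.71 and 1.64), *Zbp1* (1.38 and 1.53), *Peg3* (1.36 and 1.33) and *Cdh10* (1.33 and 1.47). *Hes6* gave 8.47, 8.58 and 8.58 in pAT cells and 6.84, 6.76 and 6.82 in pT cells, close to its levels beside the microRNAs. *Dll3* gave 7.74, 7.75 and 7.69 in pAT cells and 6.03, 6.0 and 6.21 in pT cells. *Hsd17b14* led the falls common to both (-1.19 with the microRNAs and -1.24 without, with 7.19, 7.44 and 7.07 in pAT cells and 8.43, 8.44 and 8.54 in pT cells). *Tcl1* (-1.08 and -1.14), *Nr5a2* (-0.85 and -1.18), *Prdm14* (-0.70 and -1.11) and *Sox15* (-0.60 and -1.13) fell in both. *Dll1*, *Lfng*, *Sema3e* and *Gata6* were called with the microRNAs only, with 0.92 against 0.81, 0.76 against 0.51, 1.02 against 0.76 and 0.92 against 0.38 without them, which are differences that did not pass the direct test that follows.

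**Figure D4:**
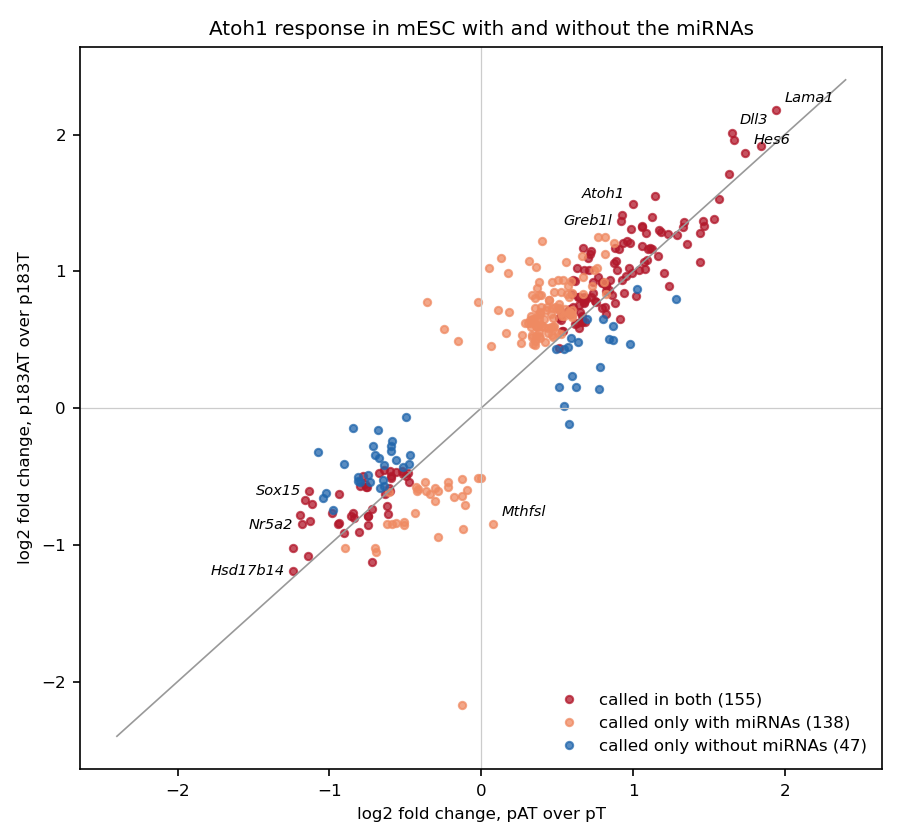
Log2 fold change of p183AT over p183T (y axis) against that of pAT over pT (x axis) for clusters called in either contrast, coloured by where they were called, with the line of equal change. The 155 clusters called in both lie along that line, and the cluster near -2.17 is that of *Snord68* and *Rpl13*.

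Whether the response to Atoh1 differed with the microRNAs was tested directly, as the difference between the p183AT over p183T and the pAT over pT fold changes. No cluster passed in the limma fit (lowest adjusted p = 1), with 832 of 25341 at an unadjusted p under 0.05. That share is smaller than this threshold lets through on average where nothing differs. The genes given next with unadjusted p-values are therefore listed as values and are not calls. The one-way test of the methods was not run on this difference. *Atoh1* itself differed by 0.49 ± 0.23 (unadjusted p = 0.046), its levels being 6.15 ± 0.10 in p183AT and 4.66 ± 0.26 in p183T cells beside 6.01 ± 0.18 in pAT and 5.0 ± 0.21 in pT cells (mean ± SD, n = 3 each). Among genes named here *Greb1l* (0.45, unadjusted p = 0.0041), *Dll3* (0.36, unadjusted p = 0.04), *Dhrs3* (0.41, unadjusted p = 0.022), *Sox15* (0.53, unadjusted p = 0.0051) and *Prdm14* (0.41, unadjusted p = 0.041) leaned to the positive side, for the first 3 a larger rise and for the last 2 a smaller fall. *Hes5* (0.39, unadjusted p = 0.024), uncalled in both contrasts, was on the same side. *Calhm5* was on the negative side (-0.76, unadjusted p = 0.006), with -0.89 with the microRNAs and -0.12 without. *Mthfsl*, called lower with the microRNAs (-0.85, adjusted p = 0.039, or 0.068 under the block and 0.19 without p183T replicate 1, and lost without any array but p183AT replicate 2), differed by 0.08 without them (difference -0.92, unadjusted p = 0.0032). The largest test statistics for the difference belonged to *Vmn1r80*, *Olfr1416* and a dim *Chd5* cluster on the positive side (1.13, 1.01 and 0.82) and to *Ugt3a1*, *C130026I21Rik* and *Sypl2* on the negative side (-0.70, -0.93 and -0.82). All of these but *C130026I21Rik* were dim in p183AT and p183T cells, and the brighter *Chd5* cluster differed by -0.16 between p183AT and p183T cells. Of the called clusters, 4 higher and 2 lower ones had the opposite sign without the microRNAs. They were *Vmn1r80*, *Chd5*, *4930519G04Rik* and *Vmn2r66*, and *Mthfsl* and *Ccdc74a*, of which *Mthfsl* alone was not dim in both groups. *Vmn1r80* and *Chd5* lost the call under the block (adjusted p = 0.068 and 0.051), and on leaving out single arrays (adjusted p = 0.18 without p183T replicate 1 and without p183T replicate 3).

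In iMOP cells, which took the same vectors, p183AT against p183T called 39 clusters higher and 3 lower of 25341 tested. Of the 217 clusters that rose in mESCs, 6 were among the 39. These were *Atoh1* (1.45 in iMOP and 1.49 in mESC), *Dll3* (1.4 and 2.01), *Cdc25b* (1.05 and 1.71), *Chrnb1*, an acetylcholine receptor subunit (1.10 and 1.01), *Frrs1l*, an accessory protein of glutamate receptors (0.82 and 1.27), and *Serping1*, an inhibitor of complement (0.94 and 0.59). *Dll3* gave 6.71, 6.60 and 6.88 in p183AT and 5.02, 5.02 and 5.94 in p183T iMOP cells, without overlap. Over the 217 clusters the median difference was 0.01 in iMOP and 0.81 in mESC, and 113 were positive in iMOP. Over all tested clusters the median in iMOP was -0.01, so the median of the 217 lay close to it. The 6 named clusters were called in iMOP nonetheless, and they include *Atoh1*, which the vector carries. Over the 76 lower clusters the median difference was -0.10 in iMOP and -0.66 in mESC, with none called in iMOP. Both sets were chosen by their mESC call, which favours large values in mESC.

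The difference between the lines, tested in a fit of all 30 arrays, was called for 85 clusters (0.335%), 65 with the larger value in mESC. *Lama1* (-0.14 in iMOP and 2.18 in mESC), *Fgf5* (-0.06 and 1.91), *Hes6* (0.24 and 1.87), *Id2* (-0.63 and 1.28) and *Id1* (0.03 and 1.30) were among these. The *Lama1* and *Fgf5* clusters were dim or near dim in iMOP (4.16, 4.27 and 4.27 in p183AT and 4.40, 4.34 and 4.39 in p183T iMOP cells for *Lama1*), whereas *Hes6* was high with and without Atoh1 (9.14, 8.31 and 8.37 in p183AT and 8.60, 8.27 and 8.24 in p183T iMOP cells). *Sema7a*, a membrane-bound semaphorin (2.17 in iMOP and -0.14 in mESC), *Mical1*, an actin-oxidizing enzyme (1.57 and -0.26), and *Rab25*, an epithelial recycling GTPase (1.49 and -0.61), were called in iMOP and not in mESC. The lines were transfected with different reagents and grown in different media, so that line and handling cannot be told apart.

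**Figure D5:**
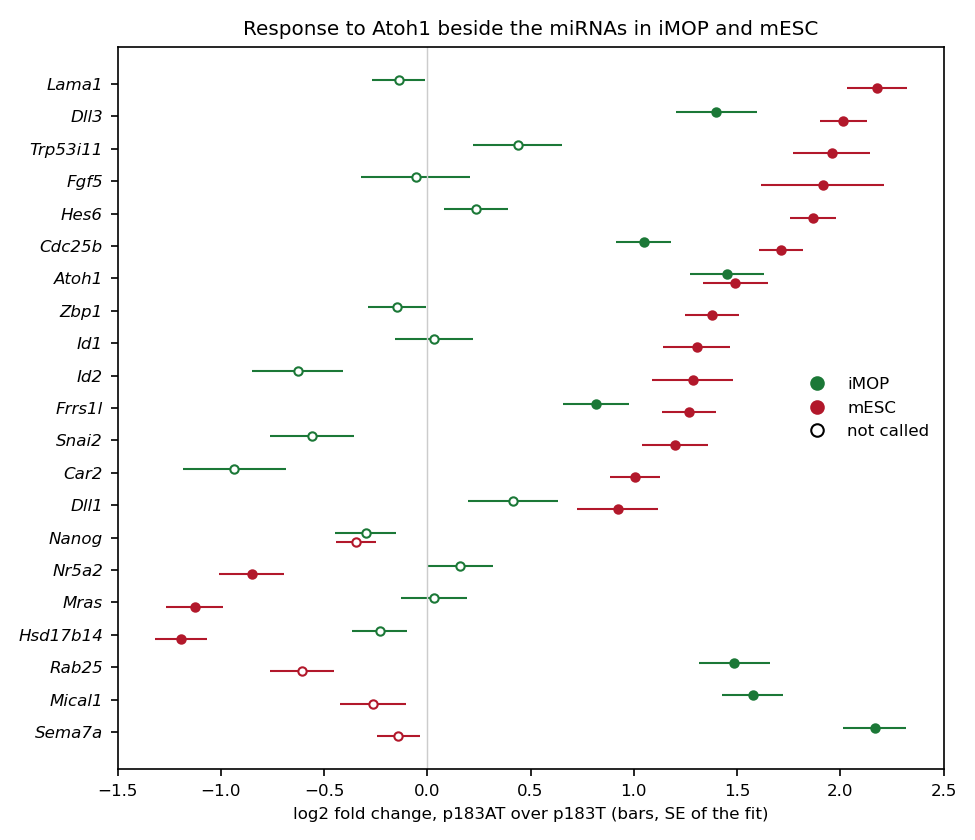
Log2 fold change of p183AT over p183T (x axis, bars: SE of the fit) in iMOP and mESC for 21 named genes (rows), open symbols where not called. *Atoh1* differed by a like amount in both lines (1.45 in iMOP and 1.49 in mESC), *Lama1* and *Id2* moved in mESC, and *Sema7a*, *Mical1* and *Rab25* moved in iMOP.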

How the data were processed

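Gene expression was measured on Affymetrix Mouse Gene ST arrays, with 3 samples per group that the labels number as biological replicates. The p-values measure the spread between samples within groups, pooled over all groups of the fit. By the submitters' processing notes, values were made with RMA and Expression Console (1.4.1.46). A single table of log2 values was deposited for 41345 transcript clusters and 30 arrays, and all columns were mapped to a sample. The sources do not say which arrays were normalized as a set. RMA subtracts background, equalizes distributions and summarizes probes, which compresses differences near background.

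The log2 values were used as deposited. Clusters were named by the platform annotation, with symbols updated through RefSeq: 23525 carried 1 symbol, 1816 several and 16004 none, and the last were not tested. Of 22184 symbols 1082 had more than 1 cluster, and the cluster of highest mean stands for the gene unless stated. A cluster with a mean under log2 5 in both groups is called dim (48.8% of clusters were under it in p183AT and 48.5% in p183T). Groups were compared with limma (3.58.1, R 4.3.3, functions lmFit, contrasts.fit and eBayes) in 1 fit of the 15 mESC arrays, or of all 30 for contrasts with iMOP cells, with Benjamini-Hochberg adjustment over the 25341 tested clusters and a threshold of 0.05. The code was tested on simulated data. The median residual SD in mESC was 0.186. The number of arrays limits the precision.

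Named genes were the vector-carried genes, the 15 highest and 15 lowest called clusters with 1 symbol, the 10 largest changes common to both mESC contrasts, all called members of the Notch, Hes, Id and BMP, proneural, pluripotency, primed epiblast and hair cell lists and up to 4 of each other list, a fixed set of Notch, Id and hair cell genes, and the extremes of the difference tests. Uncalled and further list members and the genes that complete a small count were named after their values were seen. Members, lists and tests were chosen with earlier results of these data known. Same-numbered p183AT and p183T samples deviated together from their group means (correlations of 0.105, 0.144 and 0.193 for replicates 1, 2 and 3, against -0.181 to 0.045 for different numbers). Deviations cancel out within a group, so positive values for same numbers push those for different numbers down. For pAT and pT the same-numbered correlations were 0.023, -0.031 and 0.141. The pairing rests on these values, since the labels do not state what a number marks. Alternatives were a fit of the compared arrays alone or of all 30, the replicate block, dim clusters left out, renewed quantile normalization, a variance trend, 1 cluster per symbol, the one-way test of the methods, and leaving out each array.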

Additional observations from a re-analysis of the deposited data

Results flagged for a closer look

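The following named genes are listed because their response to p183AT over p183T differed between iMOP and mESC in the fit of all 30 arrays (limma, adjusted p under 0.05, with 85 of 25341 clusters or 0.335% called). Each difference is the iMOP log2 fold change minus the mESC one. Groups of 3 arrays are too small for a test of single outlying samples.

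A larger response in iMOP was found for *Sema7a* (difference 2.31, adjusted p = 1.4e-07), with a fold change of 2.17 in iMOP and -0.14 in mESC. *Rab25* (2.1) and *Mical1* (1.84) were likewise called higher in iMOP and not called in mESC. *Mir383* differed by 1.67 (0.63 in iMOP and -1.04 in mESC), neither of which passed alone, and its cluster was dim in both lines. Positive differences were also found for genes that fell in mESC and were not called in iMOP, namely *Mreg* (1.17), *Mras* (1.16), *Nr5a2* (1.01), *Hsd17b14* (0.96) and *Gpa33* (0.86). All of these but *Mreg* were dim in iMOP, where a fall could hardly show. Their means in p183T iMOP cells were 4.7 for *Mras*, 4.5 for *Nr5a2*, 4.6 for *Hsd17b14* and 4.9 for *Gpa33*, against 6.4 for *Mreg*.

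A larger response in mESC was found for *Lama1* (difference -2.31, adjusted p = 6e-09), *Fgf5* (-1.97), *Hes6* (-1.63), *Trp53i11* (-1.52), *Zbp1* (-1.52), *Lbh* (-1.46), *Gfra3* (-1.45), *Greb1l* (-1.37), *Id1* (-1.27), *Rgs16* (-1.26), *Pou3f1* (-1.18), *Pim2* (-1.16), *Tmem88b* (-1.1), *Dhrs3* (-1.08), *Oasl2* (-1.01), *Peg3* (-0.98), *Prtg* (-0.87) and *Sall2* (-0.84). In iMOP the fold changes of these genes lay between -0.31 (*Sall2*) and 0.44 (*Trp53i11*), and none was called. *Lama1*, *Gfra3*, *Oasl2*, *Dhrs3*, *Rgs16*, *Greb1l* and *Tmem88b* were dim in both iMOP groups, whereas *Hes6*, *Trp53i11*, *Id1*, *Pim2* and others were not. The difference was widened by negative iMOP values, which did not pass alone, for *Car2* (-1.94, with -0.93 in iMOP and 1.01 in mESC), *Id2* (-1.91, with -0.63 and 1.28), *Id3* (-1.81, with -0.86 and 0.96, uncalled in both lines) and *Snai2* (-1.76, with -0.56 and 1.20).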

How the results depend on the processing

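Counts moved with the fit. None of the 70 called genes that the rule for named genes chose changed sign under the alternatives run on them. A change of sign was hardly possible, so its absence says little. Most alternatives keep the difference of the group means, and groups that do not overlap keep its sign when an array is left out. The other called genes in the text (*Epcam*, *Rassf4*, *Jakmip2*, *Nxn*, *Vat1l*, *Rab30*, *Chrnb1*, *Serping1*, *4930519G04Rik*, *Vmn2r66*, *Ccdc74a* and those under other observations) were not run singly. Fitting only the compared arrays, which leaves fewer samples to estimate the spread, gave 83 higher and 12 lower clusters and 46 called in both mESC contrasts, against 217, 76 and 155, and ended 37 of the 70 calls. With dim clusters left out (10193 kept) 244 clusters were higher and 145 lower. The one-way test of the methods at a fold of 1.5 and an unadjusted p under 0.05 gave 256 higher and 141 lower clusters, and 0 higher and 0 lower after adjustment, where limma by the first rule gave 336 higher and 283 lower. With 1 array left out, higher clusters numbered 138 (without p183T replicate 2) to 279 (without p183AT replicate 2) and lower ones 34 (without p183T replicate 1) to 135 (without p183AT replicate 2). Lower clusters were 37 without p183T replicate 3, 42 without p183AT replicate 3 and 49 without p183AT replicate 1. Clusters called in both mESC contrasts numbered 84 (without pT replicate 2) to 142 (without p183AT replicate 2), and the difference between these contrasts had 0 calls throughout. Leaving out 1 array ended 28 of the 70 calls, 14 of 47 higher and 14 of 23 lower.

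With the replicate number as a block 206 clusters were higher and 70 lower, 152 were called in both contrasts and 0 differed between them. The block kept 251 of the 293 calls and added 25, and of the 70 calls it ended no other than the 8 given with their values (*Lfng*, *Sall2*, *Sox7*, *Tfcp2l1*, *Rbm24*, *Mthfsl*, *Vmn1r80* and *Chd5*). All 30 arrays in the fit, renewed quantile normalization, a variance trend and 1 cluster per symbol left the higher count at 210 to 248 and the lower at 70 to 111. Of the 70 calls, 32 (28 higher and 4 lower) were kept under every alternative run on them. In p183AT cells 48.8% of clusters lay under log2 5, near background, where differences are compressed.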

Other observations

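Some called genes outside the lists were noticed after their values had been seen, and are given as values. *Parp12*, a PARP family member, averaged 9.5 in p183AT and 8.22 in p183T cells and rose by 1.27 (adjusted p = 1.7e-05), with 1.23 in pAT against pT cells and -0.07 in iMOP. *Psmb10*, a subunit of the immunoproteasome, rose by 0.96 (adjusted p = 0.00094), with 0.95 in pAT against pT cells. The guanylate-binding protein *Gbp7* rose by 1.25 (adjusted p = 0.0031), *Erap1*, a peptide-trimming enzyme of antigen presentation, by 1.01 (adjusted p = 0.011) and *Parp9* by 0.83 (adjusted p = 0.0071). Beside *Zbp1* and *Oasl2*, these are genes that interferon is known to induce, whereas of 20 listed genes of interferon and nucleic acid sensing 18 were not called.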
